A study of Homo sapiens with 12 samples.

Results

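The inflammatory output of HPV+ HNSCC cells was followed here through 45 genes, comprising 7 members of the IL-1 family, 10 other cytokines, 9 cytokine receptors, 12 chemokines and 7 genes of the NF-kB pathway. They were chosen by symbol as a functional module, and 44 of the 45 were found among the 20738 genes of the deposited table. CCL5 could not be matched to an identifier of the table and was not analysed here. The RNA came from UPCI-SCC-090 and from UM-SCC-47, 2 established lines grown from HPV+ head and neck squamous cell carcinomas. Each line was treated for 72 h with 500 nM JQ1, a small molecule inhibitor of BET bromodomains, or with 0.1% DMSO as its vehicle. There were 3 libraries in each of the 4 groups and 12 in all. The groups thus were UPCI-SCC-090 with JQ1, UPCI-SCC-090 with DMSO, UM-SCC-47 with JQ1 and UM-SCC-47 with DMSO. The labels do not say whether the libraries of a group came from separate cultures, so the p-values measure the spread between these libraries, which may be technical. JQ1 was given at 1 dose for 1 time.

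Cytokines and chemokines carry signals between epithelial, tumor and immune cells, and each acts through receptor chains that are often shared by several ligands. Interleukin 1 and TNF signal through a kinase complex that releases NF-kB from its inhibitors, whereas the ligands of the gp130 and common chain families signal through JAK kinases and STAT factors. NF-kB induces chemokines, adhesion molecules and its own inhibitors, among them NFKBIA and TNFAIP3, so that the pathway limits itself.

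Levels are given as CPM, counts scaled to the size of the library, with TMM factors within each line, and log2 fold changes, their standard errors (SE) and adjusted p-values came from edgeR's quasi-likelihood test over all genes of a comparison. A gene was called where its Benjamini-Hochberg adjusted p was under 0.05. Total estimated counts ran from 20349275 to 30788657 per library. The libraries differed in how gene level tracked GC content, with slopes of −0.73 and 0.43 (log2 per 10 points of GC, relative to the mean of the line) in UPCI-SCC-090 JQ1 replicates 3 and 2, 0.66 in UPCI-SCC-090 DMSO replicate 2 and −0.51 in UM-SCC-47 JQ1 replicate 3, against −0.27 to 0.22 in the other 8. The summed level of 10 squamous epithelial markers was 17530 to 19696 CPM with JQ1, against 7656 to 8379 CPM with DMSO, in UPCI-SCC-090, and 4485 to 5817 CPM with JQ1, against 3440 to 3505 CPM with DMSO, in UM-SCC-47, with 0 markers lower and 4 higher in UPCI-SCC-090 and 3 lower (TP63, KRT5 and KRT6A) and 3 higher in UM-SCC-47. Most of the sum in UPCI-SCC-090 was KRT6A, with a mean of 11092 CPM with JQ1 and 4594 CPM with DMSO. TP63 averaged 236 CPM with JQ1 and 634 CPM with DMSO there and was not called (adjusted p = 0.18). Of the immune markers CD3D, MS4A1 and FCGR3A were at 0 in all 12 libraries, and 5 T cell markers summed to at most 2.97 CPM and 3 B cell markers to at most 1.21 CPM in any library. The 6 myeloid markers summed to 5.89 to 10.4 CPM with JQ1, against 7.42 to 11.5 CPM with DMSO, in UPCI-SCC-090, and 31.3 to 42.6 CPM against 43.4 to 49.6 CPM in UM-SCC-47, mostly from CD68. Among them CD14 was lower with JQ1 in UPCI-SCC-090 and higher in UM-SCC-47, and CSF1R was lower in UM-SCC-47. The 6 fibroblast markers summed to 2.75 to 4.58 CPM with JQ1, against 18.7 to 28.6 CPM with DMSO, in UPCI-SCC-090, and 5.04 to 6.2 CPM against 13.2 to 15.3 CPM in UM-SCC-47, with COL1A1 lower in both. The 4 endothelial markers summed to at most 8.37 CPM in any library. The part of these markers in the results was not tested. In bulk RNA fewer cells expressing a gene and less RNA of it per cell cannot be told apart.

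JQ1 lowered more of these genes than it raised in both lines. In UPCI-SCC-090, 23 members passed the filter on low counts, of which 9 were lower and 1 was higher with JQ1, beside 20.4% and 7.67% of all 13150 genes tested. In UM-SCC-47, 31 members were tested, of which 17 were lower and 2 higher, beside 25.5% and 16.1% of all 13440 genes. Counting both directions, 28.1% of genes were called in UPCI-SCC-090 and 41.6% in UM-SCC-47. The JQ1 and DMSO libraries did not overlap for 44.6% of genes in UPCI-SCC-090 and for 55.3% in UM-SCC-47, so separate groups alone set no gene apart. The median log2 fold change was −0.79 over the members and −0.14 over all genes in UPCI-SCC-090, and −0.92 over the members and −0.03 over all genes in UM-SCC-47. Some members passed the filter only through the group in which they were high and so had to differ. Among the genes called lower these were IL7R and LIF in UPCI-SCC-090 and IL7R, IL1R2, IL11, IL36RN, CSF2 and CXCL1 in UM-SCC-47, and their calls are a description. Over the members that passed in both groups, 7 of 18 were lower and 1 higher in UPCI-SCC-090 with a median of −0.71, and 11 of 25 were lower and 2 higher in UM-SCC-47 with a median of −0.30. The direction of calls over all genes moved with the scaling. With RLE size factors 1755 genes were lower and 1287 higher in UPCI-SCC-090, and with library size alone 3069 were lower and 635 higher there and 4589 lower and 1456 higher in UM-SCC-47. Among the members RLE gave 6 lower and 1 higher in UPCI-SCC-090, and library size alone 9 lower and 1 higher there and 18 lower and 0 higher in UM-SCC-47. DESeq2 called 1980 genes lower and 1504 higher in UPCI-SCC-090 and 2786 lower and 2855 higher in UM-SCC-47, and a GC correction 3368 lower and 2951 higher in UPCI-SCC-090.

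LIF, IL7R, IL4R, IL22RA1 and ICAM1 were lower with JQ1 in both lines. IL1A, CXCL16 and CX3CL1 were called lower in UPCI-SCC-090 and not in UM-SCC-47, where CX3CL1 was too low to test. IL1RN, IL11, CCL28, TNFAIP3 and NFKB1 were called lower in UM-SCC-47 and not in UPCI-SCC-090, and IL1B, IL36RN, IL32, CSF1, CSF2, IL1R2 and CXCL1 were called lower in UM-SCC-47 and too low to test in UPCI-SCC-090. Of 33 members tested for the interaction, only for IL1RN, CCL28, LIF and OSMR did the response itself differ between the lines. With 2 in each direction, 6.06% had a lower and 6.06% a higher response in UPCI-SCC-090. Over all 14396 genes 3.63% had a lower and 2.93% a higher response, or 6.56% in either direction. The 33 members include CSF2, which was not detected in UPCI-SCC-090, so that its response there cannot be estimated. The 12 members that were tested in neither line were IL33, IL36G, IL24, TNF, CSF3, CXCL2, CXCL3, CXCL8, CXCL10, CXCL11, CCL2 and CCL20.

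**Figure D1:**
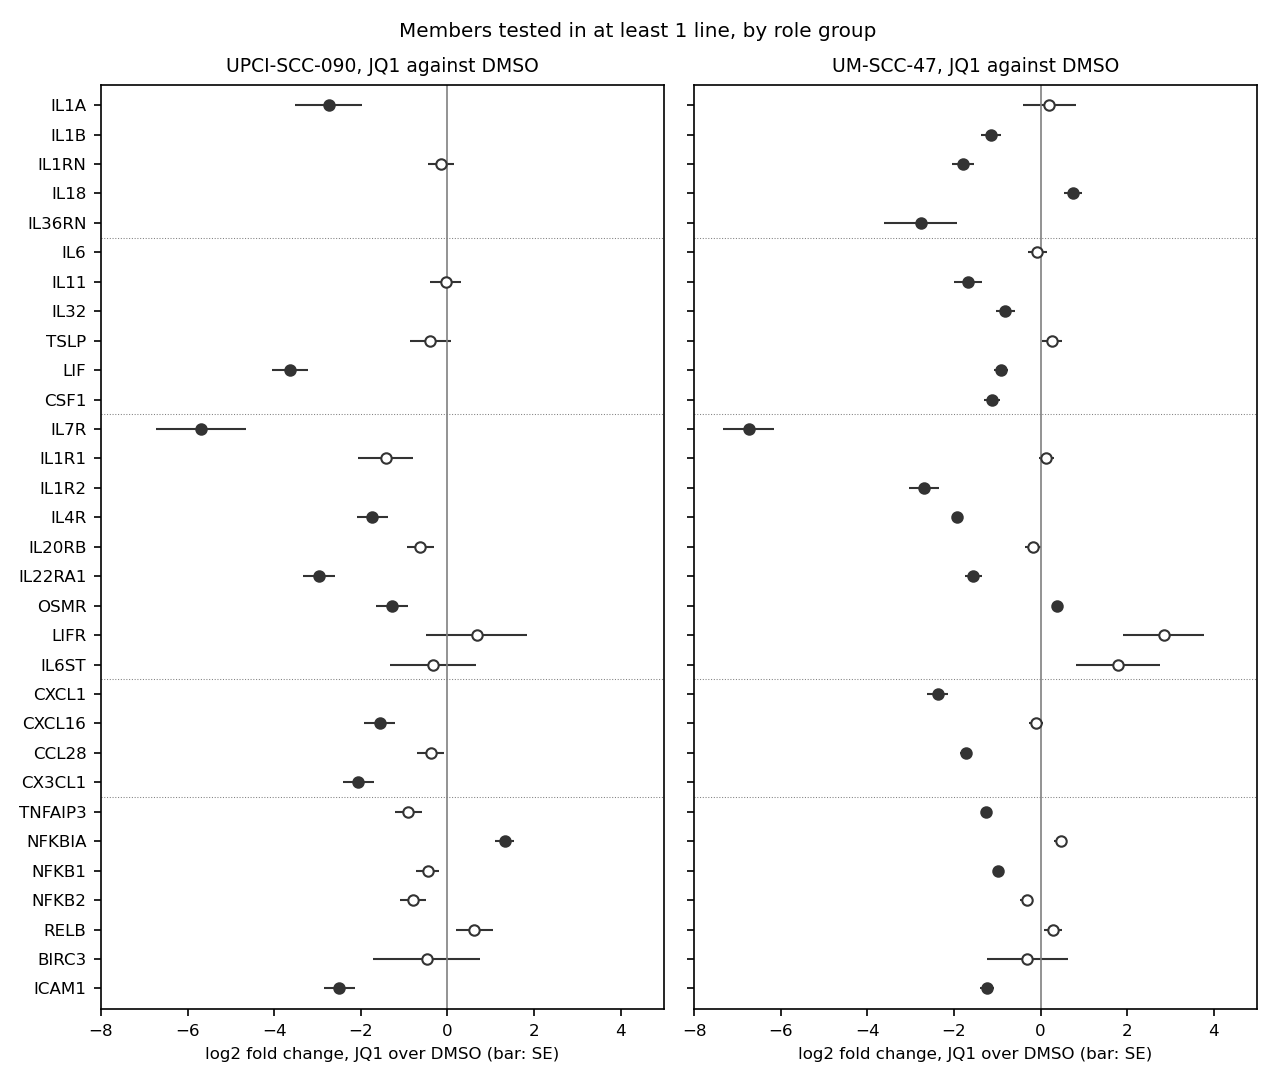
Log2 fold change of JQ1 over DMSO for each member tested in at least 1 line, in UPCI-SCC-090 (left) and UM-SCC-47 (right), with members grouped by role from the IL-1 family at the top to NF-kB genes at the bottom. Points are edgeR estimates, bars their SE, filled points passed an adjusted p under 0.05 and a missing point was not tested. CSF2, whose JQ1 libraries were all at 0, is left out. IL7R lies farthest to the left in both lines, at −5.69 and −6.74.

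Among the 9 receptor genes, 4 of 8 tested were lower with JQ1 in UPCI-SCC-090 and 4 of 9 were lower and 1 higher in UM-SCC-47, beside 20.4% of all genes lower in UPCI-SCC-090 and 25.5% lower and 16.1% higher in UM-SCC-47. Of the receptors that passed the filter in both groups 3 of 5 were lower in UPCI-SCC-090 and 2 of 7 were lower and 1 higher in UM-SCC-47. IL7R, the receptor chain for interleukin 7 that also takes part in TSLP signaling (chr5:35852797-35879705 in GRCh37), had 0.441, 0.0405 and 0.0412 CPM with JQ1 in UPCI-SCC-090, against 14.7, 3.68 and 10.4 CPM with DMSO. In UM-SCC-47 it had 0.452, 0.172 and 0.775 CPM with JQ1, against 56.8, 29.2 and 66.0 CPM with DMSO. IL7R was very low in the JQ1 libraries of both lines, and the groups lay far apart. This gave a log2 fold change of −5.69 ± 1.04 (SE; adjusted p = 0.0096) in UPCI-SCC-090 and −6.74 ± 0.59 (adjusted p = 4.3e-04) in UM-SCC-47, and the responses differed by 1.18 ± 1.14 on the log2 scale (adjusted p = 0.66). IL7R passed the filter through its DMSO libraries alone in both lines.

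IL4R, the chain shared by the receptors for interleukins 4 and 13 (chr16:27324989-27376099), had 11.2, 15.7 and 7.82 CPM with JQ1 and 29.8, 45.9 and 39.8 CPM with DMSO in UPCI-SCC-090. Its values in UM-SCC-47 were 18.1, 18.3 and 17.8 CPM with JQ1 and 68.9, 74.0 and 62.8 CPM with DMSO. The 3 JQ1 libraries of UM-SCC-47 were nearly equal and lay well under the DMSO level, while those of UPCI-SCC-090 were spread more widely but did not overlap with DMSO. On the log2 scale the change was −1.73 ± 0.36 (SE; adjusted p = 0.015) in UPCI-SCC-090 and −1.92 ± 0.13 (adjusted p = 2.2e-04) in UM-SCC-47. In UPCI-SCC-090 the IL4R call was lost without DMSO replicate 2 or 3 (adjusted p = 0.053 and 0.060) and without JQ1 replicate 1 or 3 (adjusted p = 0.13 and 0.064). RLE factors lost it there too (adjusted p = 0.059).

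IL22RA1, the epithelial receptor chain for interleukin 22 (chr1:24446261-24469630), had 3.52, 3.32 and 2.22 CPM with JQ1 in UPCI-SCC-090, against 17.9, 31.4 and 21.8 CPM with DMSO. UM-SCC-47 libraries had 3.20, 2.29 and 2.69 CPM with JQ1, against 7.27, 8.26 and 8.57 CPM with DMSO. All JQ1 libraries lay below all DMSO libraries of their line. The fitted log2 fold change was −2.97 ± 0.38 (SE; adjusted p = 0.0042) in UPCI-SCC-090 and −1.55 ± 0.20 (adjusted p = 0.0017) in UM-SCC-47, and the difference of the responses, −1.30 ± 0.47, did not pass the test (adjusted p = 0.135). It was called with a GC correction (adjusted p = 0.020), with the block and that correction, and without UPCI-SCC-090 DMSO replicate 1 (adjusted p = 0.039).

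OSMR, which pairs with gp130 to form the receptor for oncostatin M (chr5:38845960-38945698), went in opposite directions in the lines. It had 15.7, 8.83 and 17.9 CPM with JQ1 and 43.8, 29.6 and 29.3 CPM with DMSO in UPCI-SCC-090. In UM-SCC-47 the values were 304, 300 and 333 CPM with JQ1 and 245, 219 and 252 CPM with DMSO. Neither pair of groups overlapped, with JQ1 below DMSO in UPCI-SCC-090 and above it in UM-SCC-47. For OSMR the log2 fold change was −1.28 ± 0.37 (SE; adjusted p = 0.045) in UPCI-SCC-090 and 0.39 ± 0.11 (adjusted p = 0.032) in UM-SCC-47. The difference between them was −1.59 ± 0.30 (adjusted p = 0.010), and this difference passed the test under all 21 alternatives that were run. The calls within a line were less stable. Without any 1 of the 6 libraries of UPCI-SCC-090 the adjusted p was 0.073 to 0.16. With RLE factors and with DESeq2 the call there was lost too (adjusted p = 0.088 and 0.087). In UM-SCC-47 the OSMR call was lost without JQ1 replicate 1 or any 1 of the DMSO libraries (adjusted p = 0.077 to 0.12), and with library size alone the rise was 0.14 (adjusted p = 0.38). Upper-quartile factors and 1 fit over 12 libraries lost it as well (adjusted p = 0.076 and 0.19).

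The promoters of IL22RA1 and OSMR are shown because both hold a match to TGANTCA, a loose form of the AP-1 motif in which N is any base. The middle base is A in IL22RA1 and T in OSMR. Of the 35116 human promoters in the RefSeq table (GRCh38.p14) 7.71% hold a match to this loose form on either strand. Of the members, 36 had a promoter in that table, with 54 promoters in all. Of these promoters 8 held this motif, and they belong to 7 genes, among them also IL1A, IL1RN and IL11. Each sequence runs 5′ to 3′ along the gene's strand from 250 bases before to 50 bases after the start, with the motif in capitals. A match is a description of the sequence and not evidence of binding. IL22RA1 is on the minus strand at chr1:24143091-24143390 with the match at −223 to −217, and OSMR is on the plus strand at chr5:38845762-38846061 with the match at 4 to 10.
IL22RA1: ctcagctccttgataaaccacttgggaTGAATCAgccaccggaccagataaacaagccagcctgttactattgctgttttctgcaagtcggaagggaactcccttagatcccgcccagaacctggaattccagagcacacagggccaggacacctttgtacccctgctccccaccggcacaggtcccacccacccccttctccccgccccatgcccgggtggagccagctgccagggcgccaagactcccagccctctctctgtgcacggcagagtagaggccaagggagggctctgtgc
OSMR: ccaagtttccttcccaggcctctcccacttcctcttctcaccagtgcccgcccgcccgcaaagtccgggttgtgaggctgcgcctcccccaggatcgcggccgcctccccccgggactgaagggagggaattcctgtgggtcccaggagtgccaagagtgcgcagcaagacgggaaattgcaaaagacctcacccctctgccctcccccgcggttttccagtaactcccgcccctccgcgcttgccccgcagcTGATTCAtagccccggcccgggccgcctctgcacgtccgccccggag

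The signaling chains LIFR and IL6ST varied widely between libraries of a group. LIFR, the receptor for leukemia inhibitory factor, had 0.712, 0.324 and 5.11 CPM with JQ1 and 2.25, 0.171 and 1.39 CPM with DMSO in UPCI-SCC-090, and 37.5, 14.3 and 191 CPM with JQ1 and 10.6, 7.83 and 15.4 CPM with DMSO in UM-SCC-47. IL6ST, the shared gp130 chain, had 7.86, 10.2 and 64.2 CPM with JQ1 and 44.5, 7.79 and 50.9 CPM with DMSO in UPCI-SCC-090, and 105, 19.7 and 300 CPM with JQ1 and 19.1, 74.6 and 29.2 CPM with DMSO in UM-SCC-47. Replicate 3 of the JQ1 groups, the library with the most negative GC slope in each line, held the highest value of both genes, and the groups overlapped. Among the UM-SCC-47 DMSO libraries the highest IL6ST value was instead that of replicate 2, whose slope was the highest of the 3 (0.22). The exons of LIFR and IL6ST have a GC content of 37.1% and 36.5%. Neither gene was called in either line, with a log2 fold change for LIFR of 0.67 ± 1.17 (SE; adjusted p = 0.73) in UPCI-SCC-090 and 2.84 ± 0.94 (adjusted p = 0.052) in UM-SCC-47. Without JQ1 replicate 3 of UM-SCC-47 the log2 fold change of LIFR there was 1.31 (adjusted p = 0.033), and without JQ1 replicate 2 it was 3.35 (adjusted p = 0.014). LIFR was called higher in UM-SCC-47 under 10 of 16 alternatives, with a GC correction at 2.08 (adjusted p = 0.013) and with DESeq2 at 2.96 (adjusted p = 3.1e-04). For IL6ST the values were −0.33 ± 0.99 (adjusted p = 0.85) in UPCI-SCC-090 and 1.79 ± 0.97 (adjusted p = 0.19) in UM-SCC-47. Without JQ1 replicate 3 and DMSO replicate 2 of UPCI-SCC-090 the log2 fold change of IL6ST was −2.12 (adjusted p = 0.0080), and without JQ1 replicate 2 of UM-SCC-47 it was 2.31 there (adjusted p = 0.043).

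**Figure D2:**
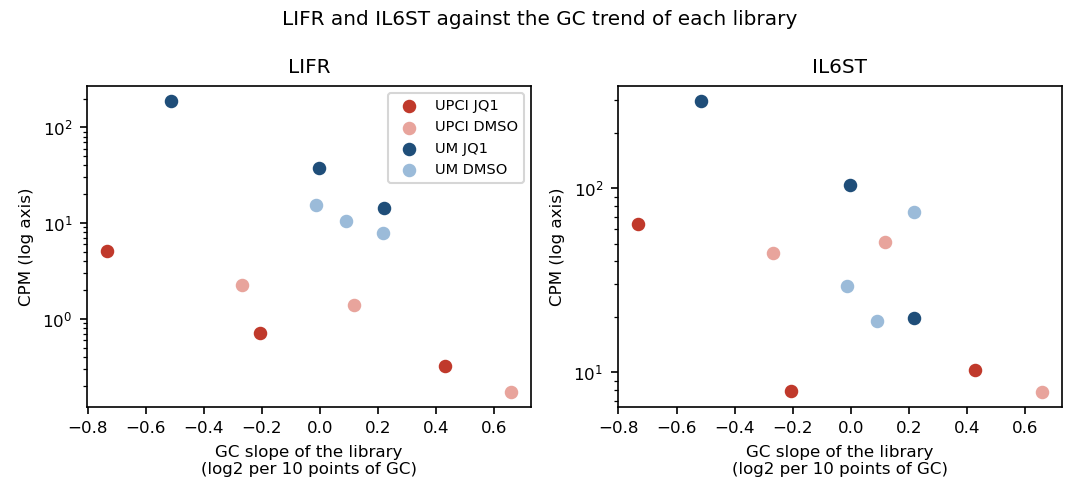
CPM (log axis) of LIFR and IL6ST in each of the 12 libraries against the GC slope of the library, in log2 per 10 points of GC content. Colors mark the 4 groups. The JQ1 libraries with slopes of −0.73 in UPCI-SCC-090 and −0.51 in UM-SCC-47 hold the highest level of both genes in their line, 5.11 and 191 CPM for LIFR and 64.2 and 300 CPM for IL6ST.

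The interleukin 1 receptors were measured mainly in UM-SCC-47. IL1R2, a decoy receptor that binds interleukin 1 without signaling, had 4, 5 and 8 counts with JQ1 and 58, 42 and 42 counts with DMSO there, a log2 fold change of −2.69 ± 0.36 (SE; adjusted p = 0.0018) for a gene that passed the filter through its DMSO libraries alone. IL1R1, the signaling receptor, had 32.8, 30.7 and 34.7 CPM with JQ1 and 30.5, 23.9 and 35.1 CPM with DMSO, groups that overlapped (0.13 ± 0.18, adjusted p = 0.58). In UPCI-SCC-090 IL1R1 had at most 1.71 CPM in any library and was not called (−1.43 ± 0.63, adjusted p = 0.14). IL20RB, a chain of the receptors for interleukins 20 and 24, was called in neither line, at −0.63 ± 0.31 in UPCI-SCC-090 and −0.17 ± 0.19 in UM-SCC-47 on the log2 scale.

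Of the 7 genes of the IL-1 family, 5 could be tested in UM-SCC-47. In UPCI-SCC-090 only IL1A and IL1RN could be tested, and 1 of the 2 was lower with JQ1, and in UM-SCC-47 3 of 5 were lower and 1 was higher (2 of 4 lower and 1 higher among those that passed the filter in both groups). These stand beside 20.4% of all genes lower in UPCI-SCC-090, and 25.5% lower and 16.1% higher in UM-SCC-47. IL1RN, the secreted antagonist of the interleukin 1 receptor (chr2:113856892-113891593), had 2.71, 3.57 and 2.35 CPM with JQ1 and 2.89, 3.76 and 2.90 CPM with DMSO in UPCI-SCC-090. Its values in UM-SCC-47 were 7.68, 12.7 and 7.34 CPM with JQ1 and 31.2, 33.5 and 31.6 CPM with DMSO. The groups overlapped in UPCI-SCC-090 and lay well apart in UM-SCC-47. For IL1RN the log2 fold change was −0.15 ± 0.30 (SE; adjusted p = 0.77) in UPCI-SCC-090 and −1.80 ± 0.25 (adjusted p = 0.0022) in UM-SCC-47, and the difference of 1.77 ± 0.45 passed the test (adjusted p = 0.040). That call was lost when any 1 library was left out other than UPCI-SCC-090 JQ1 replicates 2 and 3 and UM-SCC-47 JQ1 replicate 2, with adjusted p-values of 0.050 to 0.12.

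IL1A, the membrane-bound and nuclear form of interleukin 1 (chr2:113531502-113542070), had 0.508, 0.446 and 1.85 CPM with JQ1 in UPCI-SCC-090, against 9.27, 2.40 and 7.13 CPM with DMSO. In UM-SCC-47 it had 2.52, 0.687 and 4.96 CPM with JQ1, against 1.96, 2.86 and 2.29 CPM with DMSO. JQ1 and DMSO did not overlap in UPCI-SCC-090, where DMSO replicate 2 came close to JQ1 replicate 3, and in UM-SCC-47 the JQ1 libraries spread on both sides of DMSO. On the log2 scale the change was −2.75 ± 0.76 (SE; adjusted p = 0.039) in UPCI-SCC-090 and 0.20 ± 0.62 (adjusted p = 0.81) in UM-SCC-47, and the difference did not pass the test (−2.91 ± 0.97, adjusted p = 0.11), though it was called under 5 of 21 alternatives, among them the GC correction (adjusted p = 0.0028) and the fit without UM-SCC-47 JQ1 replicate 2 (adjusted p = 0.043). The IL1A call in UPCI-SCC-090 was lost without JQ1 replicate 1 or 2 (adjusted p = 0.12 and 0.063) and without DMSO replicate 1 or 3 (adjusted p = 0.10 and 0.11).

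IL1B, the secreted inflammatory form, had 2.90, 4.41 and 2.89 CPM with JQ1 and 7.11, 7.14 and 8.30 CPM with DMSO in UM-SCC-47, groups that did not overlap (log2 fold change −1.15 ± 0.23, adjusted p = 0.0089). In UPCI-SCC-090 it had 1 count in all with JQ1 and 1 with DMSO. IL18, a cytokine that epithelial cells store as an inactive precursor, was the family member that rose in UM-SCC-47, with 33.7, 41.3 and 41.6 CPM with JQ1 and 24.4, 17.7 and 27.5 CPM with DMSO. Its groups did not overlap and the log2 fold change was 0.74 ± 0.21 (SE; adjusted p = 0.029), a call that was lost without DMSO replicate 1 or 2 (adjusted p = 0.089 and 0.067). The IL18 call was lost under 6 of 16 alternatives, also with the GC correction (adjusted p = 0.14), library size alone (0.096) and 1 fit over 12 libraries (0.13). In UPCI-SCC-090 IL18 stayed at or under 0.299 CPM in all 6 libraries. IL36RN, an antagonist of the interleukin 36 receptor, had 5, 0 and 0 counts with JQ1 and 13, 19 and 11 counts with DMSO in UM-SCC-47 (adjusted p = 0.040). It passed the filter through DMSO alone, and its call was lost without JQ1 replicate 2 (adjusted p = 0.064) or without DMSO replicate 1 or 3 (adjusted p = 0.082 and 0.091). With a replicate block the IL36RN call was lost too (adjusted p = 0.074). Its ligand-side relative IL36G and the alarmin IL33 had at most 6 counts in any library.

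Of the other cytokines, 1 of 3 tested was lower with JQ1 in UPCI-SCC-090 and 5 of 7 were lower in UM-SCC-47 (0 of 2 and 3 of 5 among those that passed the filter in both groups), and none of these rose at the threshold. Over all genes 20.4% were lower and 7.67% higher in UPCI-SCC-090, and 25.5% lower and 16.1% higher in UM-SCC-47. LIF, a gp130 cytokine that signals through LIFR (chr22:30636442-30642748), had 0.508, 0.405 and 0.206 CPM with JQ1 in UPCI-SCC-090, against 3.99, 5.65 and 4.52 CPM with DMSO. UM-SCC-47 libraries had 14.2, 13.3 and 11.9 CPM with JQ1, against 25.3, 26.6 and 22.5 CPM with DMSO. LIF was lower with JQ1 in each line, with tight and separate groups, and the fall was steeper in UPCI-SCC-090. The fitted log2 fold change was −3.63 ± 0.42 (SE; adjusted p = 0.0038) in UPCI-SCC-090 and −0.92 ± 0.16 (adjusted p = 0.0046) in UM-SCC-47. The responses differed by −2.60 ± 0.48 (adjusted p = 0.0089), and all 21 alternatives kept this call. In UPCI-SCC-090 LIF passed the filter through its DMSO libraries alone.

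The colony-stimulating factors were expressed mainly in UM-SCC-47. CSF1, which maintains macrophages, had 7.42, 5.21 and 6.35 CPM with JQ1 and 13.0, 14.1 and 14.1 CPM with DMSO there, groups that did not overlap (log2 fold change −1.12 ± 0.19, SE; adjusted p = 0.0046). CSF2, which acts on granulocytes and macrophages, had 0 counts in all 3 JQ1 libraries and 36, 31 and 38 counts in the DMSO libraries of UM-SCC-47 (adjusted p = 0.0015), through which alone it passed the filter. Taking 3 counts as the floor for the JQ1 group, CSF2 was at least 28.2-fold lower with JQ1. CSF2 was at 0 in all 6 UPCI-SCC-090 libraries, and CSF3 was at 0 in all 12.

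IL32, a cytokine made by epithelial and immune cells, had 13.5, 18.4 and 11.1 CPM with JQ1 and 26.2, 26.8 and 22.6 CPM with DMSO in UM-SCC-47 and did not overlap between the groups. Its log2 fold change was −0.82 ± 0.22 (SE; adjusted p = 0.027). That call was lost without JQ1 replicate 1 or 3 or without any 1 of the DMSO libraries (adjusted p = 0.063 to 0.098). It was also lost with RLE factors (adjusted p = 0.083), DESeq2 (0.087) and 1 fit over 12 libraries (0.19). IL11, a gp130 cytokine related to IL6, was low in both lines. It had 0.881, 1.13 and 0.535 CPM with JQ1 and 0.927, 0.898 and 0.807 CPM with DMSO in UPCI-SCC-090, where the groups overlapped, and 0.339, 0.401 and 0.310 CPM with JQ1 and 1.18, 1.43 and 0.763 CPM with DMSO in UM-SCC-47, where they did not. For IL11 the log2 fold change was −0.04 ± 0.35 (adjusted p = 0.95) in UPCI-SCC-090 and −1.68 ± 0.33 (adjusted p = 0.0076) in UM-SCC-47, with a difference that did not pass (1.77 ± 0.55, adjusted p = 0.085; 0.031 without UPCI-SCC-090 JQ1 replicate 3 and 0.0085 with a GC correction). In UM-SCC-47 IL11 passed the filter through DMSO alone.

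IL6 and TSLP did not pass the test in either line in which they were tested. IL6, the central gp130 cytokine, had 3.35, 4.01 and 3.98 CPM with JQ1 and 3.60, 3.43 and 4.89 CPM with DMSO in UM-SCC-47, groups that overlapped (log2 fold change −0.07 ± 0.21, SE; adjusted p = 0.80), and was at 0 in all 6 libraries of UPCI-SCC-090. TSLP, an epithelial cytokine that acts on dendritic cells, had 3.39, 1.499 and 4.36 CPM with JQ1 and 5.63, 3.29 and 3.23 CPM with DMSO in UPCI-SCC-090 (−0.39 ± 0.47, adjusted p = 0.60). In UM-SCC-47 TSLP had at most 0.79 CPM in any library and was not called (0.26 ± 0.23, adjusted p = 0.48). TNF had at most 2 counts and IL24 at most 3 counts in any library.

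**Figure D3:**
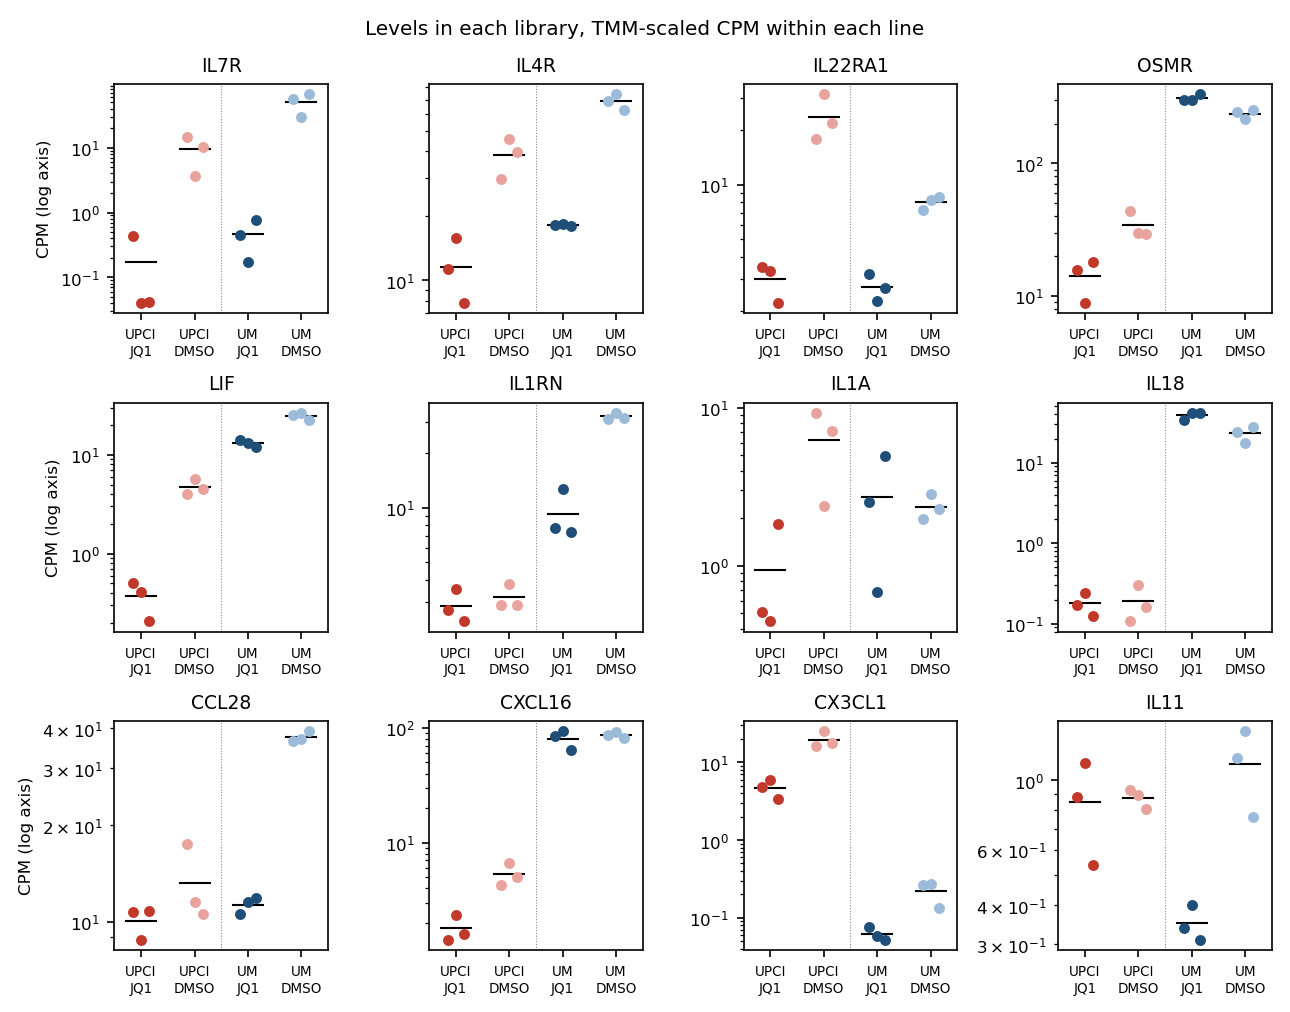
CPM (log axis) of 12 cytokine, chemokine and receptor genes in each library. Points are libraries, short lines group means, and the groups are UPCI-SCC-090 with JQ1, UPCI-SCC-090 with DMSO, UM-SCC-47 with JQ1 and UM-SCC-47 with DMSO, from left to right. OSMR lies below DMSO with JQ1 in UPCI-SCC-090 (8.83 to 17.9 against 29.3 to 43.8 CPM) and above it in UM-SCC-47 (300 to 333 against 219 to 252 CPM).

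Only 4 of the 11 matched chemokines reached a level that could be tested in either line. In UPCI-SCC-090 2 of 3 were lower with JQ1 and in UM-SCC-47 2 of 3 were lower, 1 of 2 among those that passed the filter in both groups. The share of all genes called lower was 20.4% in UPCI-SCC-090 and 25.5% in UM-SCC-47. CCL28, a chemokine of mucosal epithelia (chr5:43376747-43412493), had 10.7, 8.79 and 10.8 CPM with JQ1 in UPCI-SCC-090, against 17.5, 11.5 and 10.6 CPM with DMSO. In UM-SCC-47 it had 10.6, 11.5 and 11.8 CPM with JQ1, against 36.5, 36.9 and 39.1 CPM with DMSO. The UM-SCC-47 groups lay far apart, and only DMSO replicate 1 of UPCI-SCC-090 stood well above its JQ1 libraries. For CCL28 the log2 fold change was −0.39 ± 0.32 (SE; adjusted p = 0.43) in UPCI-SCC-090, where the groups overlapped, and −1.73 ± 0.14 (adjusted p = 3.4e-04) in UM-SCC-47. The difference of 1.44 ± 0.33 passed the test (adjusted p = 0.023) and was lost without UPCI-SCC-090 JQ1 replicate 1, UPCI-SCC-090 DMSO replicate 2 or 3, UM-SCC-47 JQ1 replicate 1 or 3, or any 1 of the UM-SCC-47 DMSO libraries (adjusted p = 0.051 to 0.081).

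CX3CL1 and CXCL16 are the chemokines that are made as membrane-bound proteins. CX3CL1 (chr16:57406389-57418956) had 4.88, 5.91 and 3.34 CPM with JQ1 and 16.2, 25.1 and 17.8 CPM with DMSO in UPCI-SCC-090. It had at most 0.27 CPM in any UM-SCC-47 library. The UPCI-SCC-090 groups did not overlap, with a log2 fold change of −2.06 ± 0.36 (SE; adjusted p = 0.0082), and the call was lost without JQ1 replicate 1 (adjusted p = 0.079). It was also lost with JQ1 replicate 3 and DMSO replicate 2 left out together (adjusted p = 0.055). CXCL16 (chr17:4636828-4643223) had 1.42, 2.35 and 1.61 CPM with JQ1 and 4.24, 6.72 and 5.00 CPM with DMSO in UPCI-SCC-090, and 84.9, 93.2 and 63.8 CPM with JQ1 and 86.5, 91.6 and 81.1 CPM with DMSO in UM-SCC-47. The groups were separate in UPCI-SCC-090 (−1.57 ± 0.35, adjusted p = 0.019) and overlapped in UM-SCC-47 (−0.10 ± 0.17, adjusted p = 0.66), and the difference of −1.36 ± 0.42 did not pass the test (adjusted p = 0.084). It was called under 7 of 21 alternatives, namely library size alone (adjusted p = 0.033), a replicate block (0.030), a GC correction (9.7e-04), both of these (0.0096), and without UM-SCC-47 JQ1 replicate 3 (0.018) or UPCI-SCC-090 DMSO replicate 1 (0.028) or JQ1 replicate 2 (0.014). In UPCI-SCC-090 the CXCL16 call was lost without JQ1 replicate 1 or 3 (adjusted p = 0.17 and 0.10) and without DMSO replicate 2 or 3 (adjusted p = 0.062 for both). RLE factors and DESeq2 lost it there as well (adjusted p = 0.075 and 0.064).

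The neutrophil chemokines of the CXCL cluster on chromosome 4 were at 0 in all 6 libraries of UPCI-SCC-090. In UM-SCC-47 CXCL1 had 8, 7 and 5 counts with JQ1 and 48, 44 and 39 counts with DMSO, a log2 fold change of −2.38 ± 0.25 (SE; adjusted p = 7.6e-04), and passed the filter through DMSO alone. CXCL2 had 2, 1 and 8 counts with JQ1 and 9, 6 and 6 with DMSO, CXCL3 had 0, 2 and 3 with JQ1 and 11, 14 and 4 with DMSO, and CXCL8 had 6, 4 and 11 with JQ1 and 14, 5 and 9 with DMSO. Only CXCL1 passed the filter, and the CXCL2 and CXCL8 groups overlapped. CXCL1, CXCL2 and CXCL3 are close paralogs, so the division of reads among them is uncertain. CXCL10, CXCL11, CCL2 and CCL20, which attract T cells or monocytes, had at most 1 count in any library.

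Of the 7 NF-kB genes, 1 was lower and 1 higher with JQ1 in UPCI-SCC-090, beside 20.4% and 7.67% of all genes, and 3 were lower and 0 higher in UM-SCC-47, beside 25.5% and 16.1%. ICAM1, an adhesion molecule for leukocytes that NF-kB induces (chr19:10381769-10397291), had 1.25, 2.11 and 1.61 CPM with JQ1 in UPCI-SCC-090, against 6.99, 11.1 and 9.91 CPM with DMSO. UM-SCC-47 libraries had 21.1, 18.7 and 16.2 CPM with JQ1, against 44.6, 46.2 and 40.9 CPM with DMSO. JQ1 and DMSO were separate in both lines, and ICAM1 was at −2.49 ± 0.36 on the log2 scale (SE; adjusted p = 0.0051) in UPCI-SCC-090 and −1.23 ± 0.16 (adjusted p = 0.0015) in UM-SCC-47, while the test of the difference did not pass (−1.16 ± 0.43, adjusted p = 0.145). That difference was called under 4 of 21 alternatives, among them the GC correction (adjusted p = 0.0054) and the fits without UPCI-SCC-090 DMSO replicate 1 or JQ1 replicate 2 (adjusted p = 0.039 and 0.030).

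NFKBIA, which encodes the inhibitor that holds NF-kB in the cytoplasm (chr14:35870285-35873955), was the member that rose in UPCI-SCC-090. It had 219, 272 and 196 CPM with JQ1 and 75.9, 101 and 96.8 CPM with DMSO in UPCI-SCC-090. In UM-SCC-47 it had 182, 209 and 145 CPM with JQ1 and 126, 137 and 126 CPM with DMSO. All JQ1 libraries were above all DMSO libraries in both lines, with JQ1 replicate 3 of UM-SCC-47 the closest. On the log2 scale the change was 1.33 ± 0.22 (SE; adjusted p = 0.0073) in UPCI-SCC-090 and 0.47 ± 0.16 (adjusted p = 0.052) in UM-SCC-47. NFKBIA was called in UM-SCC-47 as well under 7 of 16 alternatives, among them the GC correction (adjusted p = 0.0040) and the fit without JQ1 replicate 3 (0.73, adjusted p = 0.0066). The difference between the lines did not pass the test (0.97 ± 0.34, adjusted p = 0.13), and passed with the GC correction (adjusted p = 4.6e-04).

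TNFAIP3, a ubiquitin-editing enzyme that shuts off NF-kB signaling (chr6:138188351-138204451), had 1.46, 1.82 and 1.89 CPM with JQ1 and 4.14, 2.48 and 3.03 CPM with DMSO in UPCI-SCC-090. Its values in UM-SCC-47 were 18.9, 17.2 and 18.03 CPM with JQ1 and 43.2, 41.4 and 44.4 CPM with DMSO. JQ1 lay below DMSO without overlap in both lines, and in the main fit the call was made in UM-SCC-47 alone. The fitted log2 fold change was −0.90 ± 0.32 (SE; adjusted p = 0.081) in UPCI-SCC-090 and −1.26 ± 0.13 (adjusted p = 7.2e-04) in UM-SCC-47, with a difference of 0.46 ± 0.34 (adjusted p = 0.54). TNFAIP3 was called lower in UPCI-SCC-090 too with the GC correction (−0.86, adjusted p = 0.032) and with 1 fit over 12 libraries (−0.78, adjusted p = 0.028). NFKB1, the precursor of a DNA-binding subunit (chr4:103422487-103538459), had 29.1, 32.7 and 23.6 CPM with JQ1 and 36.2, 45.6 and 35.0 CPM with DMSO in UPCI-SCC-090, and 34.9, 33.6 and 29.96 CPM with JQ1 and 64.9, 67.9 and 60.8 CPM with DMSO in UM-SCC-47. Its log2 fold change was −0.45 ± 0.26 (adjusted p = 0.26) in UPCI-SCC-090 and −0.98 ± 0.13 (adjusted p = 0.0017) in UM-SCC-47.

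The promoters of NFKBIA and TNFAIP3 are printed because both are feedback genes of the pathway, NFKBIA called higher in UPCI-SCC-090 and TNFAIP3 lower in UM-SCC-47, and both hold a match to the NF-kB motif (GGGA, any 2 bases, then TTCC) on the strand opposite to the gene. Searched on both strands, the motif occurs in 1.61% of the 35116 promoters and in 12 of the 54 promoters of members. Those 12 belong to 12 of the 36 members with a promoter in the table. The others were CXCL1, CXCL2, CXCL3, CXCL10, CXCL11, IL6, IL32, TSLP, NFKB1 and NFKB2. NFKBIA is on the minus strand at chr14:35404700-35404999 (GRCh38.p14) with the match at −81 to −72, and TNFAIP3 is on the plus strand at chr6:137867009-137867308 with the match at −67 to −58. Capitals mark the match.
NFKBIA: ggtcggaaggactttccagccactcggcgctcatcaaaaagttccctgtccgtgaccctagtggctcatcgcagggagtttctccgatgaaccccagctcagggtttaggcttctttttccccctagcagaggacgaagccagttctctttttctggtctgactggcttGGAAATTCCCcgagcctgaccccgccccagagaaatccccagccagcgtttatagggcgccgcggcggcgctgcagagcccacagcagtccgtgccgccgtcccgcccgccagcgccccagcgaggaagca
TNFAIP3: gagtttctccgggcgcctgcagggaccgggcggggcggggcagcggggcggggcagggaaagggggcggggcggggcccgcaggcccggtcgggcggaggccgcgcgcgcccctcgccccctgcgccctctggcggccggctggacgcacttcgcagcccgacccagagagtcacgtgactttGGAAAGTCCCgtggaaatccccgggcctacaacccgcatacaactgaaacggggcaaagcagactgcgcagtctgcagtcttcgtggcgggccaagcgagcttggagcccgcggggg

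The noncanonical subunits NFKB2 and RELB were called in neither line in the main fit. NFKB2 had 3.05, 4.46 and 2.76 CPM with JQ1 and 6.35, 5.48 and 5.97 CPM with DMSO in UPCI-SCC-090 (log2 fold change −0.79 ± 0.31, SE; adjusted p = 0.11), and 23.8, 19.5 and 19.3 CPM with JQ1 and 25.3, 27.7 and 24.9 CPM with DMSO in UM-SCC-47 (−0.32 ± 0.16, adjusted p = 0.15). RELB was at 0.63 ± 0.42 (adjusted p = 0.33) in UPCI-SCC-090 and 0.30 ± 0.21 (adjusted p = 0.30) in UM-SCC-47, with overlapping groups in both. Without JQ1 replicate 3 of UM-SCC-47 RELB was higher there (0.58, adjusted p = 0.041). With the GC correction RELB was called higher in both lines, at 1.53 (adjusted p = 0.0020) in UPCI-SCC-090 and 0.61 (adjusted p = 0.016) in UM-SCC-47. The replicate block with that correction gave both calls too (adjusted p = 0.0059 and 0.043). The difference of the RELB responses was called with the GC correction as well (0.95, adjusted p = 0.019). NFKB2 was called lower in UM-SCC-47 with library size alone (−0.56, adjusted p = 0.036). BIRC3, an inhibitor of apoptosis induced by NF-kB, had 8.43, 2.12 and 42.5 CPM with JQ1 and 19.5, 18.1 and 27.9 CPM with DMSO in UM-SCC-47. As for LIFR and IL6ST, its GC content is low (35.8%) and JQ1 replicate 3 stood far above the other JQ1 libraries. The log2 fold change of BIRC3 was −0.30 ± 0.94 (adjusted p = 0.82), and −1.92 (adjusted p = 0.017) without that library. In UPCI-SCC-090 BIRC3 had at most 0.659 CPM in any library. It was at −0.48 ± 1.24 there (adjusted p = 0.82), and at −2.84 (adjusted p = 0.021) without JQ1 replicate 3 and DMSO replicate 2.

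**Figure D4:**
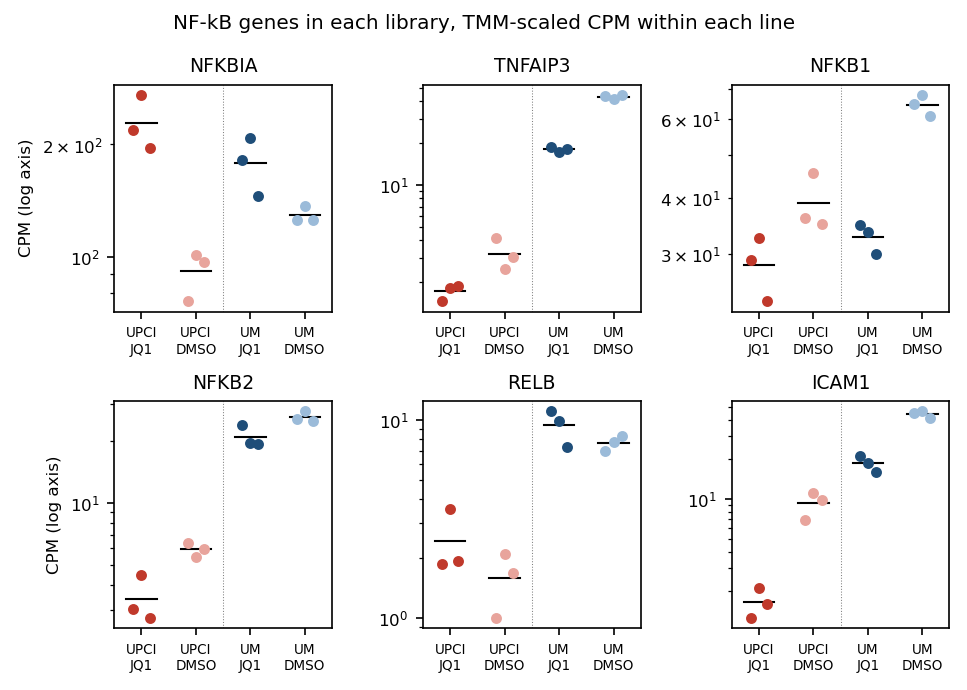
CPM (log axis) of 6 NF-kB genes in each library, with groups ordered as UPCI-SCC-090 with JQ1, UPCI-SCC-090 with DMSO, UM-SCC-47 with JQ1 and UM-SCC-47 with DMSO. Points are libraries and short lines group means. NFKBIA is higher with JQ1 (196 to 272 against 75.9 to 101 CPM in UPCI-SCC-090), while TNFAIP3 and ICAM1 lie lower with JQ1 in both lines.

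Of 52 other genes of NF-kB, IL-1, TNF, gp130 and JAK-STAT signaling 50 were matched, of which 11 of 47 tested were lower and 5 higher with JQ1 in UPCI-SCC-090, and 17 of 49 were lower and 11 higher in UM-SCC-47. These are 23.4% and 10.6% in UPCI-SCC-090, beside 20.4% and 7.67% of all genes, and 34.7% and 22.4% in UM-SCC-47, beside 25.5% and 16.1%. Their median log2 fold change was −0.24 in UPCI-SCC-090 and −0.09 in UM-SCC-47. Of 12 NF-kB inhibitors and feedback genes, 4 were lower and 1 higher in UPCI-SCC-090, and 5 lower and 3 higher in UM-SCC-47. BCL3, an atypical inhibitor, averaged 6.05 CPM with JQ1, against 21.1 CPM with DMSO, in UPCI-SCC-090, and 1.72 CPM against 11.03 CPM in UM-SCC-47, and was lower in both (adjusted p = 0.0155 in UPCI-SCC-090 and 7.8e-04 in UM-SCC-47). IER3, an immediate early response gene, was higher in both, with 95.9 against 44.5 CPM in UPCI-SCC-090 and 54.4 against 22.1 CPM in UM-SCC-47 (JQ1 against DMSO; adjusted p = 0.020 in UPCI-SCC-090 and 0.0034 in UM-SCC-47). The subunit RELA was called in neither line (−0.40 ± 0.27 and −0.04 ± 0.14). The ligand-binding chain IL6R, the partner of gp130 for IL6, was higher with JQ1 in UPCI-SCC-090 (6.15 against 1.21 CPM) and lower in UM-SCC-47 (0.99 against 3.61 CPM), and the difference between the lines was 4.31 on the log2 scale (adjusted p = 3.0e-04). Of 49 of these genes tested for the interaction, 1 had a lower and 2 a higher response in UPCI-SCC-090. These are 2.04% and 4.08%, beside 3.63% and 2.93% of all genes, so IL6R was picked from a list near the share of all genes.

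With DMSO alone the lines stood far apart in these genes. Of 32 members tested over the 6 DMSO libraries, UPCI-SCC-090 had 26 lower and 3 higher relative to UM-SCC-47, beside 25.3% and 22.7% of all 14108 genes (48% in either direction, with groups that do not overlap for 57.7%). Over the 19 members that passed the filter in both lines, 14 were lower and 2 higher. The median log2 fold change was −2.75 over the members, −2.28 over the members that passed the filter in both lines and −0.01 over all genes. Each line is a single line, so line and any batch of its libraries cannot be told apart. All 7 NF-kB genes were called lower in UPCI-SCC-090, on a log2 scale by −0.65 for NFKBIA to −6.07 for BIRC3. Of these, 6 passed the filter in both lines. The calls of NFKBIA and NFKB1 were lost without UPCI-SCC-090 DMSO replicate 3 (adjusted p = 0.15 and 0.098), as was that of IL4R (adjusted p = 0.075), and the NFKBIA call was also lost without any 1 of the UM-SCC-47 libraries (adjusted p = 0.051 to 0.079). DESeq2 lost the NFKBIA call too (adjusted p = 0.097), and the GC correction that of NFKB1 (adjusted p = 0.40).

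Several cytokines were not detected in UPCI-SCC-090 at this depth. With 3 counts over its DMSO libraries as the floor, IL6 was at least 119-fold lower there than in UM-SCC-47, CXCL1 at least 50.6-fold, CSF2 at least 40.6-fold, CXCL3 at least 11.2-fold, CXCL8 at least 10.8-fold and CXCL2 at least 8.12-fold. IL1B had 1 count in UPCI-SCC-090 and 587 counts in UM-SCC-47, a ratio of 681 with an exact 95% interval of 122 to 26936 that covers counting error alone. IL18 and CSF1 were both at −7.08 and IL32 at −6.32 on the log2 scale. Like IL6, CXCL1, CSF2 and IL1B, they passed the filter through UM-SCC-47 alone, so these calls are a description. The 3 genes that were higher in UPCI-SCC-090 were CX3CL1 at 6.26 ± 0.39 (SE; adjusted p = 1.7e-05), TSLP at 2.50 ± 0.33 (adjusted p = 6.4e-04) and IL22RA1 at 1.41 ± 0.27 (adjusted p = 0.0038). CX3CL1 passed the filter through UPCI-SCC-090 alone, so its call is a description too. IL1A, at 1.26, was not called in the main fit. It was called higher in UPCI-SCC-090 with RLE factors (adjusted p = 0.044), no filter (0.026), DESeq2 (0.015) and a GC correction (0.0085). Without UPCI-SCC-090 DMSO replicate 2 IL1A was also called higher (1.66, adjusted p = 0.0010). Among the receptors 7 of 9 were lower in UPCI-SCC-090, with IL20RB (−5.24) and IL1R1 (−5.19) lowest, and IL6ST was the receptor that was not called (−0.40 ± 0.74, adjusted p = 0.69). These comparisons share their DMSO libraries with those of JQ1.

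**Figure D5:**
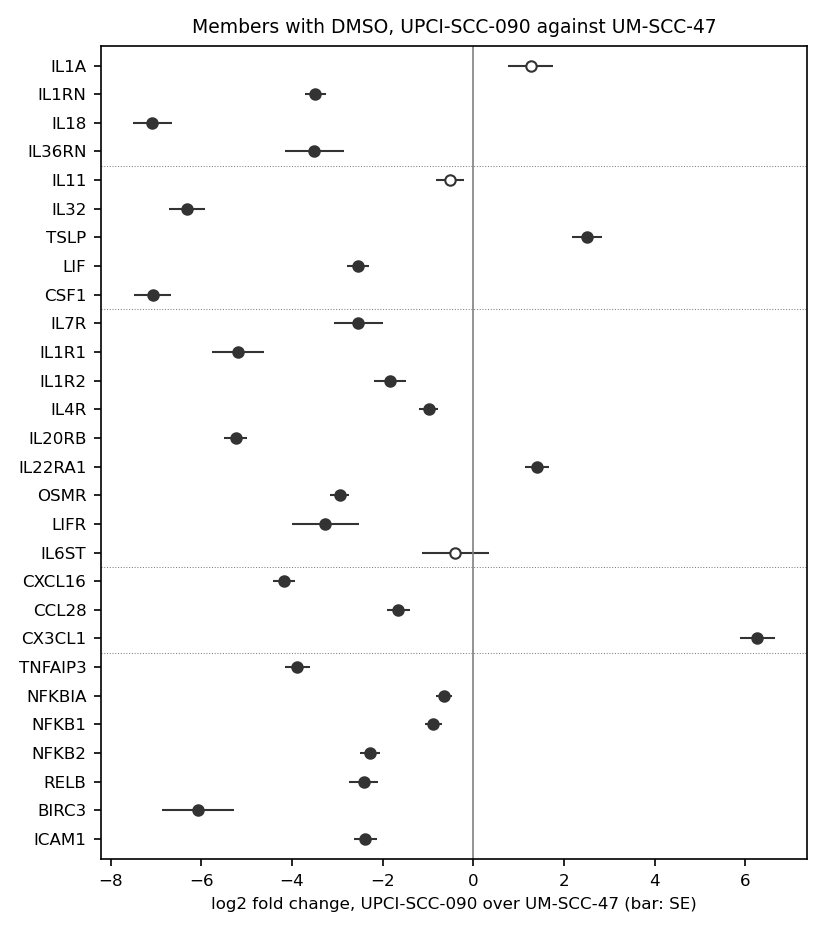
Log2 fold change of UPCI-SCC-090 over UM-SCC-47 with DMSO for each member tested, grouped by role, with bars for the SE and filled points for an adjusted p under 0.05. IL6, CSF2 and CXCL1, which are at 0 in UPCI-SCC-090, and IL1B, with 1 count there, are left out. CX3CL1 lies farthest to the right at 6.26, and most other members lie left of 0.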

How the data were processed

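RNA-seq of 12 libraries was analysed. The authors made stranded libraries from total RNA depleted of ribosomal RNA, and deposited estimated counts per gene from Salmon, not scaled between libraries. Salmon 0.8.2 and DESeq2 1.28.0 appear in the submitters' notes on processing, and the index and genome build were not given in the sources used here. Reads of paralogs are shared out by estimation, which makes their counts uncertain.

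The estimated counts were made whole by rounding, then tested in R 4.3.3 with edgeR 4.0.16 (TMM, filterByExpr with minimum count 10 and minimum total 15, quasi-likelihood F test, Benjamini-Hochberg over all genes). JQ1 was compared with DMSO within each line, the lines over the 6 DMSO libraries, and the responses by the interaction over 12 libraries. Each SE was derived from the fold change and its F statistic (size of the log2 value over root F). Scripts were tested on simulated data. Replicates differed by more than sampling noise (chi-square per gene 8.25 to 425). Alternatives were RLE, upper-quartile or no scaling factors, no filter, DESeq2 1.42.0, a replicate block, a GC correction, both of these, 1 fit over 12 libraries, leaving out libraries, and the study's fold threshold. Symbols and GRCh37 coordinates came from GENCODE 44, in which 20015 of 20738 identifiers were found and 723 were not; promoters came from RefSeq. The members, pathway lists and markers were chosen with earlier results of these data known. Values in every library were given for members called in a line with at least 5 CPM and separate groups, and for those called for the interaction; values of other members were added after they were seen.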

Additional observations from a re-analysis of the deposited data

Results flagged for a closer look

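The response to JQ1 differed between the lines for 4 of the 33 members tested for the interaction. Of these 33, 6.06% had a lower and 6.06% a higher response in UPCI-SCC-090, beside 3.63% and 2.93% of all 14396 genes (6.56% in either direction). OSMR had a response of −1.59 (UPCI-SCC-090 minus UM-SCC-47, log2), being lower with JQ1 in UPCI-SCC-090 and higher in UM-SCC-47. LIF differed by −2.60, with the steeper fall in UPCI-SCC-090. IL1RN differed by 1.77 and CCL28 by 1.44, both lower with JQ1 in UM-SCC-47 and not called in UPCI-SCC-090. The OSMR and LIF differences passed under all 21 alternatives, whereas those of IL1RN and CCL28 were lost under 12 and 10 of them. Within UPCI-SCC-090 LIF passed the filter through DMSO alone. With a GC correction, with that correction and a replicate block, and without the libraries of the steepest GC slopes, the LIF, OSMR and IL1RN calls were kept. The libraries left out for their slopes were UM-SCC-47 JQ1 replicate 3, UPCI-SCC-090 DMSO replicate 2 and UPCI-SCC-090 JQ1 replicate 3. UPCI-SCC-090 JQ1 replicate 2, with a slope of 0.43, was kept in. CCL28 was lost with the GC correction (adjusted p = 0.17) and without those libraries (adjusted p = 0.076), and kept with the correction and the block (adjusted p = 0.037).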

How the results depend on the processing

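Of 62 calls of members in the 4 comparisons, 45 were kept under all alternatives. These were 5 of 10 in UPCI-SCC-090 (LIF, IL7R, IL22RA1, NFKBIA, ICAM1), 12 of 19 in UM-SCC-47 (IL1RN, IL11, CSF1, CSF2, IL7R, IL1R2, IL4R, IL22RA1, CXCL1, CCL28, TNFAIP3, ICAM1), 2 of 4 for the difference between the lines and 26 of 29 between the lines with DMSO. Of the kept calls, LIF and IL7R in UPCI-SCC-090 and IL7R, IL1R2, IL11, CSF2 and CXCL1 in UM-SCC-47 passed the filter through DMSO alone. Those calls had to differ and are a description. Of the 29 calls between the lines, 14 lower and 2 higher were of members that passed in both lines. No called member reversed. Of the 2004 values of all members tested, called and uncalled together, 85 had the other sign, all of them for uncalled members. Leaving out 1 library gave 4 to 8 lower and 1 to 1 higher members in UPCI-SCC-090 (4 without JQ1 replicate 1), 15 to 17 lower and 0 to 5 higher in UM-SCC-47 (0 without DMSO replicate 1 or 2, 1 without DMSO replicate 3 or JQ1 replicate 1, 4 without JQ1 replicate 2, 5 without JQ1 replicate 3), 2 to 5 lower (5 without UPCI-SCC-090 DMSO replicate 1, 4 without its JQ1 replicate 2) and 0 to 3 higher for the difference between the lines, and 24 to 27 lower and 3 to 4 higher between the lines with DMSO. The higher members of UM-SCC-47, 2 in the report, numbered 4 with RLE factors or a GC correction, 5 with DESeq2 or without the libraries of the steepest GC trends, and 0 with library size alone, with 1 fit over 12 libraries or with an absolute log2 fold change over 1. Over all genes 2622 were higher there with RLE factors, 3119 with the GC correction and 3051 without those libraries, against 2163 in the main fit. In UPCI-SCC-090 the fit over 12 libraries gave 14 lower and the GC correction 2 higher. Over all genes that fit called 3227 of 14396 lower there, and the GC correction called 2951 of 13150 higher. For the difference between the lines the higher members numbered 1 with RLE factors, upper-quartile factors, no filter or without the steepest GC trends, and the GC correction gave 7 lower and 4 higher. Over all 14396 genes the GC correction called 1424 responses lower and 1409 higher, against 523 and 422 in the main fit. IL1B and LIF in UM-SCC-47 were lost in the fit over 12 libraries (adjusted p = 0.060 and 0.058), and NFKB1 there with the GC correction (adjusted p = 0.15). The causes were not tested. RLE factors moved the median log2 fold change of all genes to 0.14 in UPCI-SCC-090 and 0.12 in UM-SCC-47, and library size alone to −0.38 and −0.28.

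The replicate numbers were not taken to pair the samples: same-numbered JQ1 and DMSO libraries correlated across genes at 0.09, 0.79 and 0.21 in UPCI-SCC-090 and −0.15, 0.20 and 0.43 in UM-SCC-47, and not every library correlated best with its own number. With the replicate block UM-SCC-47 had 16 lower and 4 higher members and UPCI-SCC-090 9 lower and 1 higher, and the difference between the lines 3 lower and 2 higher. The block with the GC correction gave 4 higher in UM-SCC-47, 2 higher in UPCI-SCC-090, and 6 lower and 5 higher for the difference. Over all genes this setting called 2862 higher in UM-SCC-47, 2884 higher in UPCI-SCC-090, and 1234 lower and 1160 higher for the difference. With JQ1, 12 members had too few counts to be tested in either line, 7 of them chemokines.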
